A study of Homo sapiens with 6 samples.

Results

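Epithelial junction and polarity genes were followed in LNCaP, a human prostate cancer line with luminal epithelial features that has long been established in culture. The set holds 38 genes chosen by name for their function in cell adhesion, tight junctions, apical-basal polarity and epithelial gene control, and all 38 were among the 16000 genes of the deposited table. By the labels, aldehyde dehydrogenase activity was read in LNCaP with ALDEFLUOR, and sorting gave the brightest 10% (ALDH high) and the dimmest 10% (ALDH low), both kept in RPMI-1640 with 10% FBS and no other agent or genotype. Each group has 3 libraries of poly(A) RNA, numbered 1 to 3, and values are given below in that order. Whether libraries of the same group stem from separate sorts or cultures is not stated in the labels, so the p-values cover the spread between these 6 libraries, which may be technical. The comparison asks whether these genes are expressed differently in ALDH high and ALDH low cells.

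Epithelial cells are held together by adherens junctions, in which E-cadherin binds its neighbour and catenins link it to actin, and by desmosomes, in which desmosomal cadherins are tied through plakoglobin, plakophilins and desmoplakin to keratin filaments. Tight junctions, built from claudins, occludin and scaffold proteins, seal the space between cells, and the Crumbs, Par and Scribble groups of polarity proteins separate the apical from the basolateral membrane. Grainyhead-like and OVO-like transcription factors and the splicing regulators ESRP1 and ESRP2 maintain this program, and its loss, together with the activity of repressors such as the ZEB and SNAI proteins, marks the epithelial-mesenchymal transition. LNCaP cells are known to express E-cadherin and to grow as loosely attached epithelial clusters.

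The repressors of the ZEB and SNAI families bind the E-box letters CACCTG, which read CAGGTG on the other strand, and the upstream sequence of several junction genes carries them. RefSeq's promoter table (GRCh38.p14) held 20 of the 38 genes, and the 250 bases before RefSeq's start site were searched on both strands. CDH1 and EPCAM were among the 18 genes without a window. An E-box was found in 8 of the 20 windows, or 40%, against 16.2% of 10501 windows of the table's genes, 1 window per gene. At least 2 were found in 4 of the 20, or 20%, against 2.12%. The median GC content was 70.6% over the 20 windows and 65.2% over the 10501, and its part in these counts was not tested. These 4 windows are printed 5′ to 3′ because they carry the most E-boxes of the set, with each E-box in capitals. They lie at chr19:6464021-6464270 (plus strand, 5 E-boxes), chr17:7262479-7262728 (minus strand, 4), chr6:7541421-7541670 (plus strand, 2) and chr18:31497927-31498176 (plus strand, 2). RefSeq gives the start of a transcript, whereas the gene spans given further on run from GENCODE's outermost start, so these windows lie inside or overlap the spans. For DSP, no GENCODE coding start lies within 50 bases of RefSeq's.
CRB3: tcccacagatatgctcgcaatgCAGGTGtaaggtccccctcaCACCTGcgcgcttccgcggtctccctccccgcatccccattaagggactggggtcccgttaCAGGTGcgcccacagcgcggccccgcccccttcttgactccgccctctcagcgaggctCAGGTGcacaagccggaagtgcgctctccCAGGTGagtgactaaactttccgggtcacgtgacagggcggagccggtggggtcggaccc
CLDN7: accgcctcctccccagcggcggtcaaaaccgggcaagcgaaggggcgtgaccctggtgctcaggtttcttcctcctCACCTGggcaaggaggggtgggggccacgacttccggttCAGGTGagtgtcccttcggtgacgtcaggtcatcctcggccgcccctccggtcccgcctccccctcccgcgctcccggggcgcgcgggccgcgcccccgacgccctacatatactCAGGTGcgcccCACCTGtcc
DSP: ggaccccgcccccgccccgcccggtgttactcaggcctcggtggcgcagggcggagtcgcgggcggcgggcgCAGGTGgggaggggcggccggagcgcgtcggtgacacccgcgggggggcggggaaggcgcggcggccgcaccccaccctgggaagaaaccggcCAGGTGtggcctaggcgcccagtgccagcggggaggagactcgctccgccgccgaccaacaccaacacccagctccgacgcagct
DSG2: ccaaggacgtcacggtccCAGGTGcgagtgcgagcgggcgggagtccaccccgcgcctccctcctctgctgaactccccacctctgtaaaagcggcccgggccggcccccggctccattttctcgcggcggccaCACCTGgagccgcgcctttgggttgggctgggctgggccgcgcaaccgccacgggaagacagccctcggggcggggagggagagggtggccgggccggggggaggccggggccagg
The Grainyhead-like letters AACCGGTT, AACTGGTT or AACCAGTT were found in 0 of the 20 windows and in 0.505% of the 10501. Such matches describe letters only, and no factor binding was measured.

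Variation between libraries ran across the groups. Over the 500 most variable genes, principal component 1 held 67.3% of the variance and set ALDH low 2 beside libraries 1 and 3 of ALDH high, and ALDH high 2 beside libraries 1 and 3 of ALDH low. Whether libraries were exchanged between the groups was not tested; every group difference below takes the labels as deposited. Recovered reads ran from 23817310 to 30617873 per library. The labelled cell type was met by its markers, with 8 of 9 listed luminal symbols in the table. The missing symbol, ACP3, is another name of ACPP, which was in the table. Among the 8 were KLK3 at 84409.6 ± 3629 normalized reads across ALDH high against 87806 ± 12287 across ALDH low (mean ± SD, n = 3 a group, here and in all such pairs), KRT8 at 16734 ± 1136 against 17387 ± 4013, and HOXB13 at 18162 ± 841 against 19966 ± 2605. Of 6 basal markers only KRT14 was in the table, of 8 fibroblast markers 2, of 7 endothelial markers 3, of 7 leukocyte markers 1, of 4 smooth muscle markers 2 and of 6 neuroendocrine markers 2. Their summed levels per library ran from 70.2 to 215 normalized reads across ALDH high and 95.7 to 286 across ALDH low for the basal list, and from 1539 to 1846 and 881 to 1519 for the fibroblast list, nearly all of it COL1A1, which some carcinoma cells also express. The fibroblast sums did not overlap between the groups, by a narrow margin (1539 in ALDH high 2 against 1519 in ALDH low 2). COL1A1 had an adjusted limma p of 0.984, and over all genes 3.67% did not overlap with ALDH high higher. The part of these fibroblast sums in the results was not tested. In these bulk samples, fewer cells of a type and less RNA per cell cannot be told apart.

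Between the groups, no junction or polarity gene passed the test. Limma on log2(normalized reads + 1) over all 16000 genes, with Benjamini-Hochberg adjustment, called 0 genes (0%) and 0 of the 38 at an adjusted p of 0.05, and the smallest adjusted p among the 38 was 0.984. Without adjustment, limma put 338 genes (2.11%) at p under 0.05, 1.38% of genes with ALDH high higher and 0.738% with it lower, and 0 of the 38, whose smallest unadjusted p was 0.0878. On recovered whole reads, edgeR and DESeq2 also called 0 genes, and before adjustment they put 357 of 16000 (2.23%) and 355 of 15997 (2.22%) at p under 0.05, with 0 of the 38 in either. The authors' deposited table gives a smallest adjusted p of 0.998 for the 38. With both samples numbered 2 left out, limma called 107 genes (0.669%), of which 0 were junction or polarity genes. Those samples lay on the other group's side of principal component 1, so the groups left divide along the main axis of these same data. Calls were therefore likely beforehand, and at 0.669% of all genes, 0 of the 38 says little about the set.

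Of the 38 log2 differences, taken as ALDH high minus ALDH low, 26 lay above 0 (68.4%, against 52.3% of all genes) and 12 below, from −0.55 in CLDN8 to 0.39 in GRHL1, with a median of 0.057 against 0.015 over all genes. Without ALDH low 1, 19 lay above 0 and the median was −0.0056. The 95% interval included 0 for all 38 (97.9% of all genes), and for 37 of them, all but CLDN8, it lay within a 2-fold change either way, as it did for 74.7% of all genes. These shares compare genes of unlike level, as 36 of the 38 had a mean of at least 100 normalized reads. The interval reached a median of 0.417 to either side over the 38, 0.418 over all genes with such a mean and 0.478 over all genes. The groups did not overlap in 2 of the 38, CTNNA1 and MARVELD3, both higher in ALDH high (5.26%, against 3.67% of all genes), and in 0 of the 38 was ALDH high below ALDH low throughout (3.32% of all genes). With a trend with exon length and GC content removed, as described below, the groups overlapped in both genes. CTNNA1 was then highest in ALDH low 3, at a log2 deviation from its mean of 0.16. MARVELD3 was lower in ALDH high 2 (−0.034) than in ALDH low 2 (0.021).

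**Figure D1:**
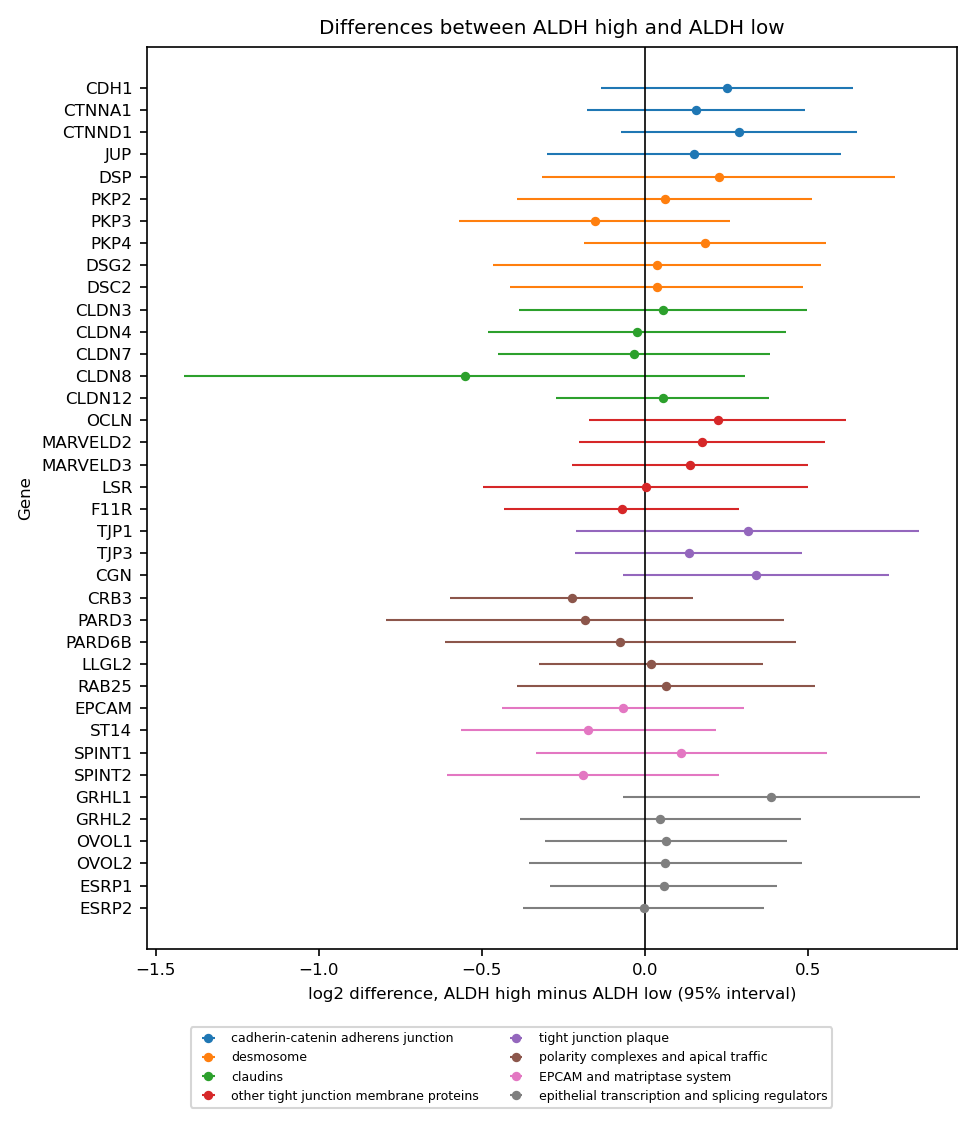
The log2 difference between ALDH high and ALDH low (x axis, ALDH high minus ALDH low, on log2(normalized reads + 1)) for each of the 38 genes (y axis, coloured by role), with points for the limma estimate and bars for its 95% interval. Every bar crosses 0, and CLDN8 has the widest.

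Levels spanned a wide range, compared here as RPKM, that is recovered reads scaled to the library's total and to kilobases of exon, averaged over the 6 libraries. The highest was CLDN7 at 240.4, followed by SPINT2 at 125, CLDN3 at 105 and CLDN4 at 103. CLDN3 and CLDN4 differed by less than their spread between libraries, and so did the next genes in order, JUP at 59.9 and CDH1 at 55.1. The lowest were DSC2 at 1.02, CLDN8 at 0.841 and PARD3 at 0.551. On this per-length scale 31 of the 38 lay above the median gene of the table, which was at 3.68. Together the 38 genes took 0.476% (ALDH low 1) to 0.544% (ALDH high 2) of all genes' recovered reads.

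**Figure D2:**
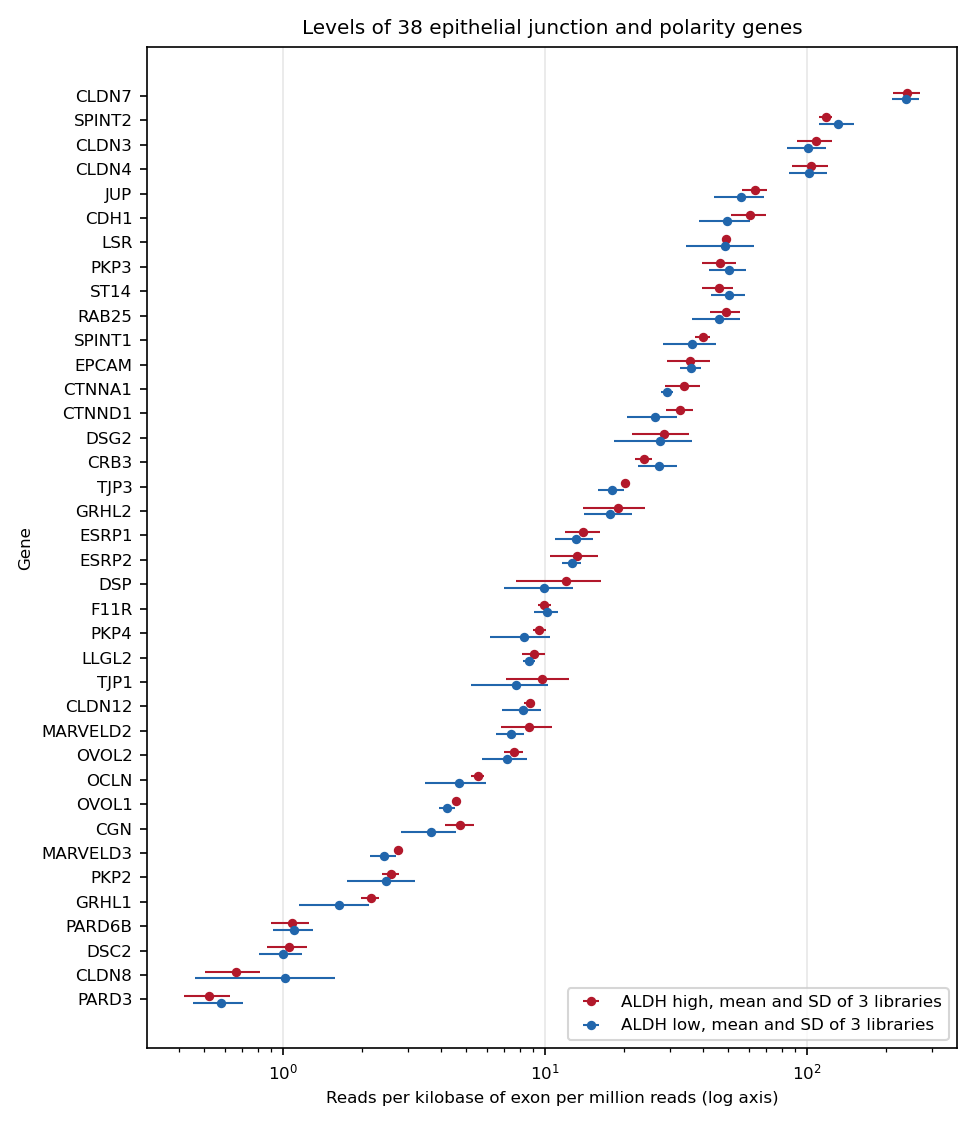
Level of each of the 38 genes (y axis, ordered by level) in RPKM (x axis, log axis), with points for the mean and bars for the SD of the 3 ALDH high libraries (red) and the 3 ALDH low libraries (blue). Levels run from 0.551 in PARD3 to 240.4 in CLDN7, and the bars of the groups lie close together or overlap along the whole range.

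The cadherin-catenin complex of the adherens junction had all 4 of its listed genes above 0, with a median log2 difference of 0.20, and none passed limma's threshold. CDH1, which encodes E-cadherin (chromosome 16, 68737225 to 68835548), had 9215, 11448 and 9118 normalized reads across ALDH high, against 7368, 10079 and 7679 across ALDH low. Its highest library was ALDH high 2 and its lowest ALDH low 1, and ALDH low 2 lay above ALDH high 1 and 3, so the groups overlapped. The log2 difference was 0.25 (95% interval −0.14 to 0.64). CTNND1, the p120 catenin that keeps E-cadherin at the membrane (chromosome 11, 57753243 to 57819546), had 7209, 8569.8 and 7205 normalized reads across ALDH high, against 5969, 7435 and 5500.4 across ALDH low, again highest in ALDH high 2 and again with an overlap through ALDH low 2. Its log2 difference was 0.29 (95% interval −0.074 to 0.65), and 4.64% of its exon bases are shared with other annotated genes on its strand.

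CTNNA1, the alpha-catenin that couples the complex to actin (chromosome 5, 138610967 to 138935034), was one of the genes whose groups did not overlap. It had 7304, 9196 and 7353 normalized reads across ALDH high, against 6882, 7115 and 7283 across ALDH low, so that ALDH high 1 exceeded ALDH low 3 by a narrow margin and ALDH high 2 stood above all others. The log2 difference was 0.16 (95% interval −0.18 to 0.49), with an unadjusted limma p of 0.322 and an adjusted p of 0.984. JUP, plakoglobin, which serves adherens junctions and desmosomes alike (chromosome 17, 41754604 to 41786931), had 8205, 9185 and 7666 normalized reads across ALDH high, against 5564, 7788 and 9736 across ALDH low. Both its extremes, ALDH low 1 and ALDH low 3, were ALDH low libraries, and its log2 difference of 0.15 turned to −0.064 without ALDH low 1. Beta-catenin (CTNNB1), the partner of alpha-catenin outside the set, averaged 10063 ± 883 normalized reads across ALDH high against 11165 ± 1302 across ALDH low, a log2 difference of −0.15 (95% interval −0.49 to 0.20).

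Among the 6 desmosome genes, 5 lay above 0 and 1 lay below, and their median was 0.050; none passed. DSP, desmoplakin, which anchors keratin filaments (chromosome 6, 7541575 to 7586717), had 2501, 4482 and 2688 normalized reads across ALDH high, against 3412, 2643 and 2088 across ALDH low. The value in ALDH high 2 was 2.15 times that in ALDH low 3, and the other libraries lay between with the groups mixed. Its log2 difference of 0.23 (95% interval −0.31 to 0.77) turned to −0.037 without ALDH high 2. DSG2, the desmoglein of simple epithelia (chromosome 18, 31498043 to 31549008), had 3967, 5916 and 4141 normalized reads across ALDH high, against 5911, 4559 and 3335 across ALDH low. As in DSP, ALDH high 2 and ALDH low 1 were high and ALDH low 3 was lowest, and the log2 difference was 0.038.

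DSC2, a desmocollin, averaged 349 ± 54.1 normalized reads across ALDH high against 341 ± 57.7 across ALDH low and differed by 0.036. The plakophilins, armadillo proteins of the desmosomal plaque, differed by 0.061 in PKP2, −0.15 in PKP3 and 0.18 in PKP4 on the log2 scale. PKP3 averaged 4697 ± 614 normalized reads across ALDH high against 5286 ± 1172 across ALDH low, and PKP4 2412 ± 97.3 normalized reads across ALDH high against 2151 ± 433 across ALDH low. PKP3 was the most abundant of these desmosome genes per length, at 48.6 RPKM against 2.52 for PKP2 and 8.92 for PKP4. ALDH low 3 was the highest library for PKP3 and the lowest for PKP2 and PKP4, and PKP2 and PKP4 were both highest in ALDH low 2.

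The 5 claudins, the membrane proteins that set tight junction permeability, split into 2 above 0 and 3 below at a median of −0.024, and under total-read scaling CLDN4 and CLDN7 moved above 0. CLDN7 (chromosome 17, 7259903 to 7263983) had 16143, 13756 and 18193 normalized reads across ALDH high, against 14001, 15370.2 and 20116 across ALDH low. CLDN4 (chromosome 7, 73799542 to 73832693) had 13910.3, 10447 and 14627 normalized reads across ALDH high, against 10784, 12293 and 16839 across ALDH low, and its neighbour CLDN3 (chromosome 7, 73768997 to 73770270), 29271 bases away, had 4075, 2979.8 and 3984 normalized reads across ALDH high, against 2812, 3413 and 4494 across ALDH low. All 3 were highest in ALDH low 3, and all 3 were lower in ALDH high 2 and ALDH low 1 than in the other 4 libraries. Their log2 differences were −0.033, −0.024 and 0.055, so that this shared pattern ran across the groups. With a trend with exon length and GC content taken out of each library, as described below, it was no longer shared by all 3.

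CLDN8 (chromosome 21, 30214006 to 30216073), a claudin near the lower end of the table, had 31.4, 45.6 and 32.01 normalized reads across ALDH high, against 90.96, 38.1 and 42.8 across ALDH low. It had the largest ratio of highest to lowest library in the set, 2.895, which rested on ALDH low 1. Its log2 difference was −0.55 (95% interval −1.41 to 0.31), and it was −0.17 without ALDH low 1. CLDN12, a claudin without the usual PDZ-binding end, averaged 1572 ± 87.2 normalized reads across ALDH high against 1518 ± 164 across ALDH low, and 16.3% of its exon bases are shared with other genes on its strand.

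Of the 5 other tight junction membrane proteins, 4 lay above 0 and 1 below at a median of 0.14, with LSR below 0 in edgeR and DESeq2. OCLN, occludin, averaged 998 ± 60.5 normalized reads across ALDH high against 866 ± 175 across ALDH low and differed by 0.22. MARVELD2, tricellulin, which seals the corners where cells meet, averaged 1241 ± 252 normalized reads across ALDH high against 1086 ± 57.8 across ALDH low, differed by 0.18 and was highest in ALDH high 2. MARVELD3, a relative of occludin (chromosome 16, 71626161 to 71642114), had 472, 467 and 469.8 normalized reads across ALDH high, against 388, 464 and 433 across ALDH low. Its groups did not overlap, but the log2 difference was only 0.14 (95% interval −0.22 to 0.50), with an unadjusted limma p of 0.4198 and an adjusted p of 0.984. Genes on the opposite strand share 18.1% of its exon bases, and without known strand their reads cannot be told apart.

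LSR, the lipolysis-stimulated receptor, which recruits tricellulin to cell corners (chromosome 19, 35248330 to 35267964), had 3914, 3603 and 3879.5 normalized reads across ALDH high, against 2726, 3620.5 and 5509 across ALDH low. ALDH low 3 was 2.02 times ALDH low 1, the group means lay within the range of ALDH low, and the log2 difference was 0.0029 (95% interval −0.50 to 0.50). F11R, the junctional adhesion molecule JAM-A, averaged 1342 ± 96.7 normalized reads across ALDH high against 1419.7 ± 232 across ALDH low, a log2 difference of −0.071, and 36.6% of its exon bases are shared with another annotated gene on its strand.

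The 3 plaque proteins of the tight junction all lay above 0, with a median of 0.32, and none passed. TJP1, the scaffold ZO-1 (chromosome 15, 29699367 to 29968865), had 2511, 3769.9 and 2471 normalized reads across ALDH high, against 2685, 2787 and 1622 across ALDH low. ALDH high 2 stood highest, ALDH low 3 lowest at a ratio of 2.32, and of the other 4 libraries ALDH low 1 and 2 lay above ALDH high 1 and 3. Its log2 difference was 0.32 (95% interval −0.21 to 0.84), which is also the median of the 3. When single libraries were left out, it ran from 0.064 without ALDH low 3 to 0.45 without ALDH low 2. CGN, cingulin, which links the plaque to actomyosin (chromosome 1, 151510510 to 151538692), had 952, 734 and 825 normalized reads across ALDH high, against 600.4, 808 and 584 across ALDH low. In CGN, ALDH low 1 and 3 lay below every ALDH high library and ALDH low 2 lay between ALDH high 2 and ALDH high 3. Its log2 difference was 0.34 (95% interval −0.066 to 0.75), with an unadjusted limma p of 0.0917 and an adjusted p of 0.984. TJP3, ZO-3, averaged 2275 ± 78.6 normalized reads across ALDH high against 2092 ± 351 across ALDH low and differed by 0.13.

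Of the 5 polarity genes 2 lay above 0 and 3 below, at a median of −0.075. CRB3, the Crumbs protein of most epithelia (chromosome 19, 6463777 to 6467221), had 968, 1077 and 989 normalized reads across ALDH high, against 1348, 961 and 1270.4 across ALDH low. ALDH low 1 and 3 were its highest libraries and ALDH low 2 its lowest, and the log2 difference was −0.22 (95% interval −0.60 to 0.15). PARD3, the scaffold of the Par complex (chromosome 10, 34109560 to 34815325), was the lowest of the set per length and had 77.5, 109 and 84.6 normalized reads across ALDH high, against 120.4, 77.1 and 114 across ALDH low, with a log2 difference of −0.18 (95% interval −0.79 to 0.43). Its partner PARD6B averaged 136 ± 21.9 normalized reads across ALDH high against 144 ± 26.2 across ALDH low. LLGL2, a basolateral polarity protein, averaged 1918 ± 221 normalized reads across ALDH high against 1892 ± 207 across ALDH low and differed by 0.019. RAB25, a small GTPase of apical recycling, averaged 2223 ± 329 normalized reads across ALDH high against 2159.8 ± 555 across ALDH low and differed by 0.065, and ALDH low 3 was 1.702 times ALDH low 1.

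EPCAM, the epithelial cell adhesion molecule (chromosome 2, 47345158 to 47387601), had 2799, 1890.4 and 2528 normalized reads across ALDH high, against 2443, 2570.2 and 2443 across ALDH low. ALDH high held both its highest and its lowest library, and the log2 difference was −0.066 (95% interval −0.44 to 0.31). Matriptase, a membrane serine protease encoded by ST14 that can cleave EPCAM, averaged 5318 ± 642 normalized reads across ALDH high against 6042 ± 1118 across ALDH low. Its inhibitors SPINT1 and SPINT2 (HAI-1 and HAI-2) differed by 0.11 and −0.19. SPINT2 (chromosome 19, 38244035 to 38292614) had 17173, 14993 and 16819 normalized reads across ALDH high, against 17011, 15857 and 23864 across ALDH low, so that 5 libraries were close together and ALDH low 3 stood above them. Without ALDH low 3 its log2 difference was −0.011.

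Of the 6 epithelial regulators, 5 lay above 0 and ESRP2 below at a median of 0.060, and ESRP2 was above 0 in edgeR, DESeq2 and under total-read scaling. GRHL1, a Grainyhead-like activator of desmosomal genes (chromosome 2, 9951693 to 10002277), had 417, 459.8 and 494 normalized reads across ALDH high, against 329, 451 and 284 across ALDH low. As in CGN, ALDH low 1 and 3 were lowest, while ALDH low 2 fell among the ALDH high libraries. Its log2 difference was the largest of those above 0, 0.39 (95% interval −0.068 to 0.84), with the smallest unadjusted limma p of the 38, 0.0878, and an adjusted p of 0.984. GRHL2, an activator of CDH1 and claudin genes, had 2609.9, 3952 and 2621 normalized reads across ALDH high, against 3416, 2839 and 2529 across ALDH low. GRHL2 had its highest values in ALDH high 2 and ALDH low 1, as DSG2 and DSP did, and its log2 difference was 0.047 (95% interval −0.38 to 0.48).

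The splicing regulators ESRP1 and ESRP2 keep the epithelial forms of many transcripts. ESRP1 had 1786, 2071 and 1587 normalized reads across ALDH high, against 1834, 1843 and 1539 across ALDH low. ESRP2 (chromosome 16, 68229111 to 68238102) had 1654, 2375 and 1823 normalized reads across ALDH high, against 2046, 1777 and 1982 across ALDH low. Both were highest in ALDH high 2, and their log2 differences were 0.058 and −0.0029. OVOL1 and OVOL2, zinc finger repressors of mesenchymal genes, averaged 467 ± 14.8 normalized reads across ALDH high against 448 ± 51.1 across ALDH low and 442 ± 44.8 against 425 ± 72.6. A gene on the opposite strand shares 27.1% of the exon bases of OVOL1.

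The ratio of the highest to the lowest library had a median of 1.54 over the 38 genes and reached 2 in 4 of them (CLDN8, TJP1, DSP and LSR). The median SD of log2 values over the 6 libraries was 0.23, as large as the 0.23 of the 11506 genes whose mean reached 100 normalized reads, a level that 36 of the 38 reached. When each gene was set against its own mean, the deviations spread by an SD over the 38 genes of 0.16, 0.15 and 0.15 in libraries 1 and 3 of ALDH high and library 2 of ALDH low, and of 0.24, 0.30 and 0.32 in library 2 of ALDH high and libraries 1 and 3 of ALDH low. These are also the sides of principal component 1.

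**Figure D3:**
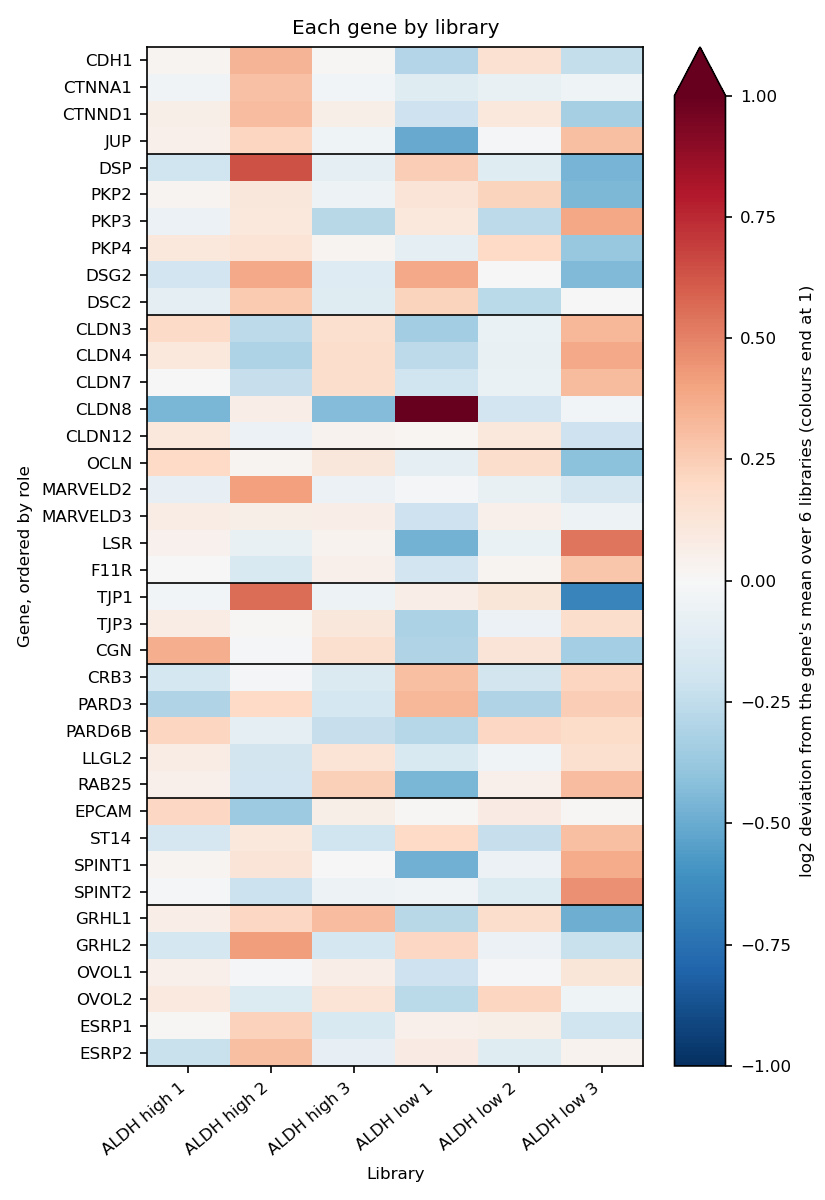
Each gene (y axis, ordered by role, with lines between roles) in each library (x axis), coloured by its log2 deviation from its own mean over the 6 libraries. ALDH low 3 is red for CLDN3, CLDN4, CLDN7, LSR and SPINT2 and blue for DSP, DSG2, TJP1 and GRHL1, while ALDH high 2 is red for DSP and TJP1.

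ALDH low 3 held an extreme value in most genes. It was the highest library for 14 of the 38 (36.8%, against 30.9% of genes with a mean of at least 100) and the lowest for 13 (34.2%, against 29.1%). The 14 were JUP, PKP3, CLDN3, CLDN4, CLDN7, LSR, F11R, TJP3, LLGL2, RAB25, ST14, SPINT1, SPINT2 and OVOL1. The 13 were CTNND1, DSP, PKP2, PKP4, DSG2, CLDN12, OCLN, MARVELD2, TJP1, CGN, GRHL1, GRHL2 and ESRP1. ALDH low 1 was the lowest library for 13, among them CDH1, JUP, CLDN3, LSR, RAB25 and SPINT1 (34.2%, against 23.4%), and ALDH high 2 the highest for 11, among them CDH1, CTNNA1, CTNND1, DSP, DSG2, TJP1 and GRHL2 (28.9%, against 22.7%).

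The genes high and low in ALDH low 3 differed in transcript length and base composition. The 14 that were highest there had a median exon length of 4033 bases and a median GC content of 60.97%, and the 13 that were lowest there 6761 bases and 44.8%. Across the 38 genes, the deviation in ALDH low 3 had a Pearson r of −0.59 with log2 exon length and 0.66 with GC content, and that in ALDH high 2 of 0.61 and −0.38. Over 11490 genes of the table with a mean of at least 100, the same values were −0.52 and 0.37 for the former library and 0.44 and −0.13 for the latter. For ALDH low 1 the r with log2 exon length was 0.085 over the 38 genes and 0.074 over the 11490, and that with GC content −0.43 and −0.45. These correlations are across genes of 1 library, which share its preparation and are not independent replicates.

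**Figure D4:**
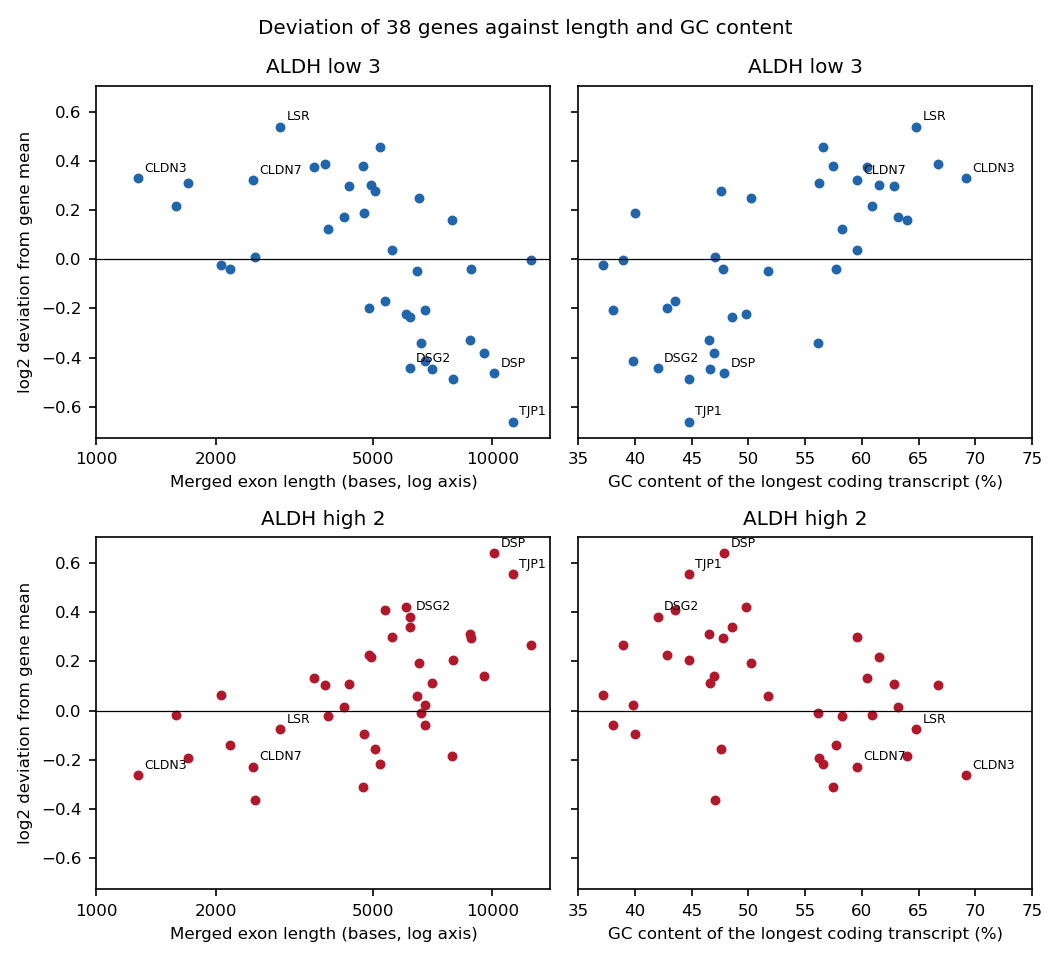
Log2 deviation of each of the 38 genes from its own mean (y axis) in ALDH low 3 (upper panels, blue) and ALDH high 2 (lower panels, red), against merged exon length in bases (left, log axis) and GC content of the longest coding transcript in percent (right), 1 point per gene. In ALDH low 3 the long, GC-poor transcripts of TJP1, DSP and DSG2 lie below 0 and the shorter, GC-rich ones of LSR, CLDN3 and CLDN7 above it, and in ALDH high 2 the order is turned.

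A trend with exon length and GC content was then taken out of each library, an alternative added after seeing the data. The SD of the deviations over the 38 genes went from 0.32 to 0.22 in ALDH low 3. It went from 0.24 to 0.19 in ALDH high 2 and from 0.30 to 0.27 in ALDH low 1. In ALDH high 1 (0.157 and 0.157), ALDH high 3 (0.153 and 0.144) and ALDH low 2 (0.146 and 0.141) it changed little. The genes followed below were picked as highest or lowest in the same library. Smaller deviations of the same sign were therefore likely beforehand. The median deviation in ALDH low 3 went from 0.31 to 0.17 for the 14 genes, of which 11 stayed above 0, and from −0.38 to −0.20 for the 13, of which 12 stayed below. In ALDH low 3, CLDN3 turned from 0.33 to −0.16, while CLDN4 went from 0.38 to 0.31. CLDN7 then had its highest value in ALDH high 3, at 0.15. In ALDH low 3, LSR also went from 0.54 to 0.25, CLDN7 from 0.32 to 0.046, TJP1 from −0.66 to −0.36 and DSP from −0.46 to −0.23. In ALDH high 2, the 11 genes that were highest there kept their sign, at a median of 0.28 against 0.34 before. Between the groups, limma called 0 genes after this step, and 24 of the 38 differences lay above 0.

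Other genes of the same pathways were read from lists chosen by function. Limma called 0 members of each list, against 0% of all genes. Of the other adherens junction genes 10 of 19 symbols were in the table, with 6 above 0, 4 below and a median of 0.19. Here and in the polarity list, some symbols are other names of the same genes, so a missing symbol need not be a missing gene. NECTIN1, a nectin, averaged 1436 ± 32.5 normalized reads across ALDH high against 1144 ± 209.7 across ALDH low without overlap between the groups. The groups did not overlap in 1 of these 10 genes, 1 of 16 other tight junction genes and 1 of 25 other polarity genes. Over all genes the shares were 3.67% with ALDH high higher and 3.32% with it lower. Other desmosome and hemidesmosome genes (9 of 15) had a median of 0.10, other tight junction genes (16 of 27, 13 above 0) 0.16, and other polarity genes (25 of 29, 16 above 0) 0.017. Among these, CGNL1, a paralog of cingulin, averaged 624 ± 86.3 normalized reads across ALDH high against 493 ± 97.1 across ALDH low, and AMOT, a scaffold of polarity and Hippo signalling, 444 ± 158 normalized reads across ALDH high against 283 ± 69.3 across ALDH low, the latter with an unadjusted limma p of 0.0482 and an adjusted p of 0.984. The groups overlapped in AMOT, which was highest in ALDH high 2 (621) and lowest in ALDH low 3 (204). By limma's log2 difference, AFDN, which ties nectins to actin, stood at 0.29, the cytolinkers DST and PLEC at 0.50 and 0.34, the junctional adhesion molecule JAM3 at 0.30 and the apical transport motor MYO5B at 0.38, with adjusted p of 0.984 for each.

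Gap junction genes (3 of 8) had a median of 0.11, and other epithelial regulators and membrane proteases (15 of 20, 6 above 0) −0.017. Their log2 differences were −0.11 in the channel gene PANX1, 0.40 in the connexin gene GJC1, 0.31 in EHF, an ETS factor of epithelia, and −0.24 in MAL2, which acts in apical transport. The list of mesenchymal genes and transcription factors of the epithelial-mesenchymal transition (10 of 20) had 5 above 0, 5 below and a median of 0.013. SNAI2, a repressor of CDH1, had 33.5, 54.7 and 51.4 normalized reads across ALDH high, against 99.6, 40.02 and 69.6 across ALDH low, and SNAI1, its relative, 104, 98.5 and 109 normalized reads across ALDH high, against 64.97, 145 and 107 across ALDH low. In both, the ALDH low libraries were the more widely spread and enclosed or overlapped those of ALDH high. TWIST1, another transcription factor of this transition, had 435, 626 and 362 normalized reads across ALDH high, against 842, 385 and 766 across ALDH low, a log2 difference of −0.44 (95% interval −1.11 to 0.23), and was highest in ALDH low 1 and 3; it was named after its values were seen. FN1, fibronectin, averaged 118 ± 9.49 normalized reads across ALDH high against 85.6 ± 18.5 across ALDH low, and TAGLN, the actin-binding transgelin, 173 ± 20.1 normalized reads across ALDH high against 102 ± 23.6 across ALDH low. The groups did not overlap in either gene, the only 2 of the 10 to show this. Over all genes, 3.67% did not overlap with ALDH high higher and 3.32% with it lower. The log2 difference of FN1 was 0.47 (95% interval −0.094 to 1.04), with an unadjusted limma p of 0.09301 and an adjusted p of 0.984. That of TAGLN was 0.77 (95% interval 0.23 to 1.32), with an unadjusted limma p of 0.00979, the smallest in these lists, and an adjusted p of 0.984. ZEB1, ZEB2, VIM and CDH2 were listed but were not among the genes of the table, whose lowest row mean was 9.65 normalized reads, so they were not analysed here.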

How the data were processed

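The submitters' processing notes name STAR 2.5.2b, Trimmomatic 0.36, Subread 1.5.2 with featureCounts, and DESeq2, on GRCh38. Per the labels' protocols, uniquely placed reads in exons were counted per gene, and no source used here says whether strand was kept. The authors deposited a normalized signal per gene and library, the read count divided by 1 size factor per library, with a log2 fold change (positive where ALDH low is higher, as read from the sample columns), a p-value and its adjusted p-value. The deposited table held 16046 rows, of which 46 were spike-in sequences, and its lowest row mean was 9.65 normalized reads, so genes below that were not analysed here. Whole reads were recovered from the steps of the deposited signal, with at least 99.99% of values whole within 0.02 of a read.

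The main test was limma 3.58.1 with its trend option (R 4.3.3), applied to log2(normalized reads + 1) for all 16000 genes, Benjamini-Hochberg adjustment and a threshold of 0.05. Alternatives were edgeR 4.0.16 and DESeq2 1.42.0 on recovered reads, total-read scaling, a pseudocount of 5, a minimum mean of 100, the replicate block, leaving out libraries, and removal of a trend with exon length and GC content (natural splines with 4 degrees of freedom each), which was added after seeing the data. The limma script was tested on simulated data. These were independent libraries with a fixed spread and without the variation across groups seen here. That check therefore does not show which changes the test could find in these libraries. GENCODE 29 gave coordinates (GRCh38, counted from 1), merged exon lengths and transcript GC content for 15939 of 16000 identifiers, with length and GC for 15931. Promoter windows came from RefSeq (GRCh38.p14); where a gene had several, the window with most GENCODE coding starts within 50 bases was used. The members, lists and tests were chosen with earlier results of these data known. Every member was to be named, with 6 values for those without overlap, the highest 6 by level, the 6 most variable, the 4 largest differences in each direction, and CDH1, EPCAM, GRHL2, ESRP1 and ESRP2. Of each pathway list, up to 2 genes with the largest difference and a mean of at least 100 were named, with CTNNB1, SNAI1 and SNAI2. The 4 windows printed were chosen after their E-boxes were counted.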

Additional observations from a re-analysis of the deposited data

Results flagged for a closer look

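Reads of ERCC spike-in sequences, which are synthetic control RNAs and stood outside the comparison, made up 0.487% of all recovered reads. Their share per library ran from 0.399% in ALDH high 2 to 0.6295% in ALDH high 1. Groups of 3 libraries are too small to be searched for single outlying values.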

How the results depend on the processing

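No count of called junction or polarity genes changed under any of the 14 alternatives, at 0 of 38 in each, or 0 of the 36 left by the minimum mean of 100, which drops CLDN8 and PARD3. The count over all genes was 0 in each except without both samples numbered 2, a choice made with earlier results known, where it was 107. Those samples lay on the other group's side of principal component 1, so calls were likely there beforehand. Between 19 (without ALDH low 1) and 29 (total-read scaling) of the 38 differences lay above 0. The median difference over the 38 ran from −0.0056 without ALDH low 1 to 0.088 without ALDH low 2 when single libraries were left out; the cause was not tested. With the replicate block the count of called genes was 0, the median difference 0.057 and the count above 0 26, and the block changed no call. The labels do not say that the numbers mark a shared sort, so they were not taken as pairs. Between same-numbered libraries, the correlations over genes of the deviations from the group means were −0.46, −0.43 and 0.14 for numbers 1, 2 and 3. Same-numbered libraries lay on opposite sides of principal component 1, and an exchange of libraries was not tested. These correlations therefore cannot decide whether the numbers are pairs.

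Of the 38 single differences, 16 kept their sign throughout and 22 did not, all of them with intervals that include 0. Leaving out 1 library at a time gave a sign change in LLGL2 (−0.051 to 0.12), ESRP2 (−0.15 to 0.11), LSR (−0.23 to 0.27), CLDN3 (−0.104 to 0.23), DSG2 (−0.18 to 0.24), GRHL2 (−0.15 to 0.16), DSP (−0.037 to 0.41), ESRP1 (−0.042 to 0.15), EPCAM (−0.18 to 0.099), DSC2 (−0.091 to 0.16), CLDN7 (−0.14 to 0.12), CLDN4 (−0.16 to 0.16), PARD6B (−0.24 to 0.021), RAB25 (−0.15 to 0.24), OVOL2 (−0.058 to 0.19), SPINT1 (−0.100 to 0.33), OVOL1 (−0.021 to 0.14), JUP (−0.064 to 0.34), PKP2 (−0.15 to 0.19), CLDN12 (−0.035 to 0.12), F11R (−0.19 to 0.049) and PKP3 (−0.32 to 0.0012), as lowest and highest values. Without both samples numbered 2 the sign turned in DSG2 (−0.13), GRHL2 (−0.17), DSP (−0.042), EPCAM (0.12), PARD6B (0.039), DSC2 (−0.21), CLDN7 (0.030) and CLDN4 (0.082). It turned with edgeR in ESRP2 (0.010) and LSR (−0.059), with DESeq2 in ESRP2 (0.011) and LSR (−0.057), and with total-read scaling in ESRP2 (0.042), CLDN7 (0.011) and CLDN4 (0.021). With the length and GC trend removed it turned in PKP2 (−0.019), LLGL2 (−0.12), GRHL2 (−0.032), EPCAM (0.034), DSC2 (−0.034) and CLDN7 (0.037). The causes were not tested. Over the 38 genes the 95% interval reached a median of 0.42 to either side, before any adjustment, which is the precision that 3 libraries a group give.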
